A study of Mus musculus with 2 samples.

Results

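The metallothioneins of the mouse are 4 genes, Mt1, Mt2, Mt3 and Mt4, and all were measured in teratomas, the mixed-tissue tumours that grow from transplanted pluripotent stem cells. Members were every probe set that the platform annotation gives to one of these symbols and to no other gene, so 4 of 12393 named genes and 5 of 22690 probe sets. Mt1 has 2 probe sets, and Mt2, Mt3 and Mt4 have 1 each. The family was chosen with its values on these arrays known, so the values below are a description and none was tested.

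Of the 2 arrays, one held RNA of tumours from EiPS cells (the EiPS pool), induced pluripotent stem cells that one label names 1E12 iPS. The other held RNA of tumours from embryonic stem cells of the C57BL/6 (B6) strain (the B6 ES pool). Male B6 mice received either kind of cell subcutaneously, and the tumours were removed at week 6. The series describes the EiPS tumours as regressing. Each array held the pooled RNA of 2 tumours. The labels give the strain as C57BL/6 for both samples, and give no age of the hosts, no treatment and no removal of host cells from the tumours. With 1 array per group, no difference has a replicate check, and the number of arrays limits the precision. In whole tumours, fewer cells of a type and less RNA per cell cannot be told apart.

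Metallothioneins are small, cysteine-rich proteins that bind zinc and copper and, on exposure, cadmium. Mt1 and Mt2 are made in most tissues and are switched on by metals through the zinc-sensing factor MTF-1, which binds metal response elements in their promoters, and by glucocorticoids and inflammatory signals. Mt3 is best known from the brain and Mt4 from the differentiating layers of stratified squamous epithelium, such as skin and tongue.

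The 4 genes lie next to each other on chromosome 8 in the order Mt4, Mt3, Mt2, Mt1. Their promoter windows are shown because the members share a place in the genome and differ in how many metal response element cores their windows hold. Each window runs from 250 bases before to 50 bases after a start site, on the plus strand of RefSeq's GRCm38.p6 assembly, and all 4 genes had an entry. The windows are chr8:94136954-94137253 for Mt4, chr8:94152357-94152656 for Mt3, chr8:94172368-94172667 for Mt2 and chr8:94178839-94179138 for Mt1. For Mt1, RefSeq also lists a predicted transcript, and the window is that of a single start. Capitals mark the core of the metal response element, TGCACNC or TGCGCNC, on either strand.
Mt4: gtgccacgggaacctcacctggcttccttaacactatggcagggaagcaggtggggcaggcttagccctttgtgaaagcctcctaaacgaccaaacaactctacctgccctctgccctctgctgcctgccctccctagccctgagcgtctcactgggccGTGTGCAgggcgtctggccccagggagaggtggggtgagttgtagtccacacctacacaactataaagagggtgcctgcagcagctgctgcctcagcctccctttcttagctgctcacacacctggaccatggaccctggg
Mt3: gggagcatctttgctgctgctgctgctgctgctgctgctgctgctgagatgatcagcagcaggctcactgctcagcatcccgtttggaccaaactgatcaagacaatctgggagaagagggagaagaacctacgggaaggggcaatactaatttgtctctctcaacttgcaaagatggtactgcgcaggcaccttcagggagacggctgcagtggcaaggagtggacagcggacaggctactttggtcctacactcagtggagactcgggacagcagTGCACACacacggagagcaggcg
Mt2: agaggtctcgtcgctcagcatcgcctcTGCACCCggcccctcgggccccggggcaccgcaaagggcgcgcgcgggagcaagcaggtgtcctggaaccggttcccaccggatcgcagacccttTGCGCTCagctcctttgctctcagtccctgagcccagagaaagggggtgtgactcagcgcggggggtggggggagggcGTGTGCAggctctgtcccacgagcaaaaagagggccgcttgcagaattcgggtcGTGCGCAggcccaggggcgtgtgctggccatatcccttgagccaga
Mt1: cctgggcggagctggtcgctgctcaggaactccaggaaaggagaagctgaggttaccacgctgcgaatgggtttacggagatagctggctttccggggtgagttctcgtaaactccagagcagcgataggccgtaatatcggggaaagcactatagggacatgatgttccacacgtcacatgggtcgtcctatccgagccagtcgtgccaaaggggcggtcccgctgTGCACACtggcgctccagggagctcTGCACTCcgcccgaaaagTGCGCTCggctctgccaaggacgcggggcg

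The Mt2 window held 4 cores and the Mt1 window 3, whereas the windows of Mt3 and Mt4 held 1 each. Before the start site used here stood 3 of the 4 cores of Mt2 and 1 of the 3 of Mt1. The 1 core of Mt4 also stood before its start site, and that of Mt3 did not. For Mt1 the counts hold for the single listed start only, and a start elsewhere would move the window. No 2 cores overlapped. Of 32851 mouse promoter windows of the same length, 25.7% held at least 1 core, 1.97% at least 3 and 0.517% at least 4. A single core, as in Mt3 and Mt4, is therefore common. The antioxidant response element core, TGACNNNGC on either strand, was found once, in the Mt2 window, and in 12.4% of all windows. It overlapped none of the metal response element cores. The letters TATAAA, on either strand, were found in the Mt4 window alone among these 4 and in 13.6% of all windows. Because the Mt1 window rests on a single listed start, a motif missing from it may lie just outside. Its absence there does not show that the Mt1 promoter lacks it. These matches are descriptions of the letters in each window and carry no value from the arrays.

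**Figure D1:**
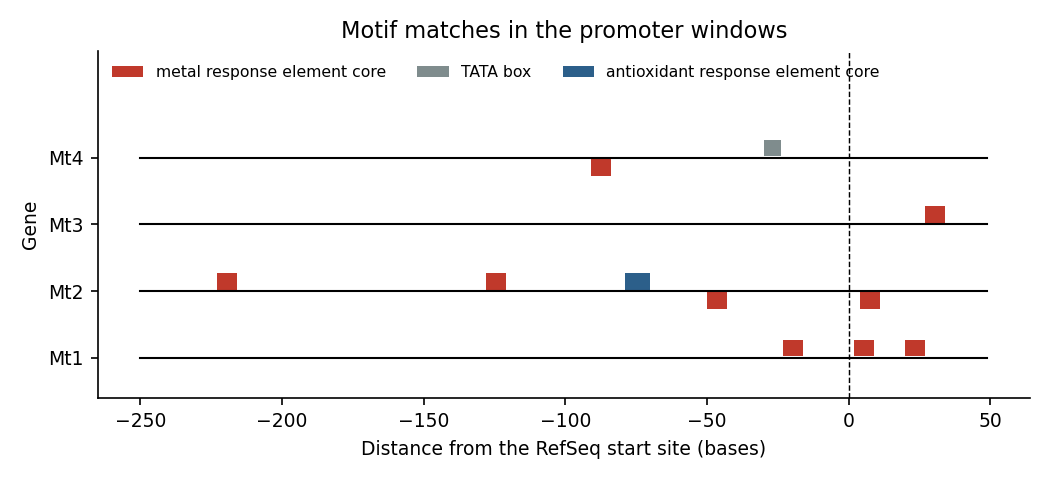
Motif matches in the promoter windows of the 4 metallothionein genes, by distance in bases from the RefSeq start site. Boxes above a line are matches on the plus strand and boxes below it on the minus strand. The Mt2 window holds 4 metal response element cores, and those of Mt3 and Mt4 hold 1 each. The Mt1 window, drawn from a single listed start, holds 3.

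All 5 probe sets had higher signals in the EiPS pool, but by very different amounts. Mt4 differed by 3.91 on the log2 scale and the dim probe set of Mt1 by 2.09, while Mt3, Mt2 and the bright probe set of Mt1 differed by 0.65, 0.36 and 0.46. Signals are MAS5 intensities in arbitrary units, and differences are given as log2(EiPS signal) minus log2(B6 ES signal). A floor of 26.0 was taken from 71 probe sets (the 90th percentile of their signals) for odorant, pheromone, taste and trace amine receptors, assumed to be silent here. All 5 probe sets passed it on both arrays. The B6 ES signals of Mt4 and of the dim Mt1 probe set passed it narrowly and were under a stricter floor of 49.2, the 98th percentile of the same receptors, so the folds of these 2 probe sets are not exact.

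**Figure D2:**
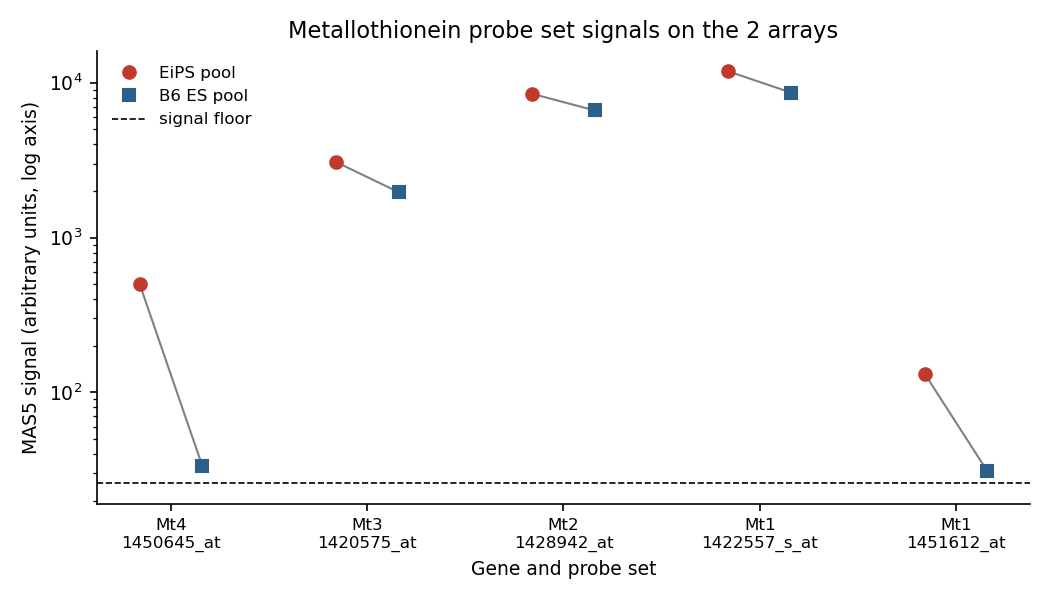
Signals of the 5 metallothionein probe sets in the EiPS pool (circles) and the B6 ES pool (squares), in arbitrary MAS5 units on a log axis, with the signal floor of 26.0 as a dashed line. Mt4 and the dim Mt1 probe set stand near the floor in the B6 ES pool only; the other 3 are far above it in both pools.

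Among 10953 genes above the floor on at least 1 array, the EiPS pool had a signal at least 2-fold higher for 5.79% and at least 4-fold higher for 0.822%. By its brightest probe set, 1 of the 4 metallothionein genes, Mt4, reached 2-fold and 4-fold. Of those 10953 genes, 56.2% were higher in the EiPS pool by any amount, and the 4 metallothioneins were too. The median log2 difference was 0.55 over the 4 genes and 0.07 over all measured genes. Less the median of all genes, the differences were 3.84 for Mt4, 0.58 for Mt3, 0.29 for Mt2 and 0.39 for Mt1. The share of higher genes among those past 2-fold in either direction was 65.5% as deposited, 52.9% after quantile normalization and 52.4% with equal medians. All 4 metallothioneins stayed on the higher side under each of these scalings.

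**Figure D3:**
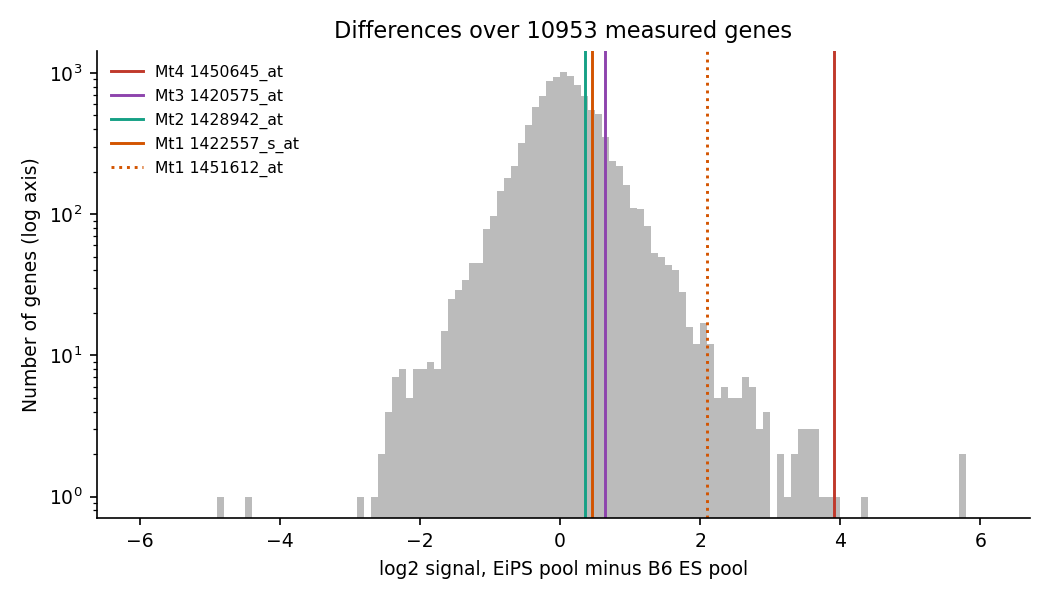
Log2 differences, EiPS pool minus B6 ES pool, over 10953 measured genes, as counts of genes on a log axis, with a line for each metallothionein probe set. The lines of Mt2, Mt3 and the bright Mt1 probe set fall in the upper shoulder of the distribution, while Mt4, at 3.91, lies at its far end.

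Mt4, the stratified epithelium form, had a signal of 502 in the EiPS pool, against 33.4 in the B6 ES pool. This is a 15.0-fold difference at the floor of 26.0, and 4 measured genes, Mt4 included and bounds taken at their value, had one as large in that direction. The EiPS signal was 19.3 times the floor and the B6 ES signal 1.28 times. On the B6 ES array 2 of the 71 silent receptors had signals as high as Mt4, and on the EiPS array none had. The Mt4 transcript thus had a clear signal in the EiPS pool and one within the range of silent genes in the B6 ES pool, so the size of its fold depends on the floor. There were 2579 probe sets, Mt4 included, with a B6 ES signal from the floor to 2 times that of Mt4. Of these, 5, or 0.194%, Mt4 again included, had an EiPS signal as high as Mt4. The median EiPS signal of all 2579 was 47.9. The stricter floor of 49.2 left the Mt4 difference at 3.35 or more, and a floor of 100 at 2.33 or more.

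Most listed genes of the stratified epithelium in which Mt4 is normally found were also higher in the EiPS pool, but by less. Of 23 measured genes of that list, 21 were higher, against 56.2% of all measured genes. Of the 23, 6 were at least 2-fold higher, against 5.79% of all measured genes. None was lower by that much, and the median was 0.61. The 2 lower genes were Trp63 (-0.34) and Krt15 (-0.04), named after their values were seen. The Mt4 difference exceeded that of each of the 21 list genes above the floor on each array, a set that holds Trp63 and Krt15. The other 2, Krt16 and Sprr1b, have only a bound. Tgm1, a transglutaminase that cross-links the cornified envelope, had signals of 297 in the EiPS pool and 40.7 in the B6 ES pool and came nearest among the 21, at 2.87. Krtdap, a protein of differentiating keratinocytes, the epidermal protease Asprv1 and Lor, the cornified envelope protein loricrin, differed by 2.08, 2.07 and 2.06. The keratins Krt4 and Krt13, which mark the suprabasal layers of tongue and oesophagus, differed by 0.50 and 0.61 (chosen after their values were seen). The keratins of the epidermis proper, Krt1 and Krt10, differed by 0.35 and 0.31 (chosen in the same way). The summed signal of all 28 genes of the list with a probe set was 22110 in the EiPS pool and 13965 in the B6 ES pool, with 23 and 21 genes above the floor. Ivl, Flg, Dsc1, Dsc3 and Casp14 were under the floor on both arrays. The part of a greater share of stratified epithelium in the Mt4 difference was not tested.

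Mt3, the neural form, had a signal of 3077 in the EiPS pool, against 1963 in the B6 ES pool. This is a 1.57-fold difference. Among 1936 genes above 1000 on both arrays, 96.8% had a smaller difference. The quartiles of those bright genes were -0.25 and 0.19. Of them, 46.9% had a higher EiPS signal by any amount, and 0.981% were higher by at least 2-fold. Mt3 therefore differed by more than most genes above 1000 on both arrays without reaching 2-fold.

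Mt3 did not follow the neuron list. All 13 measured neuron genes had lower signals in the EiPS pool, 5 of them by at least 2-fold, against a background of 3.05% of all genes lower by that much. The list's median was -0.98. Slc17a6, a vesicular glutamate transporter, differed by -2.16, the neurofilament gene Nefl by -1.47, and Stmn2 and Gap43, both genes of growing axons, by -1.41 and -1.24. The summed signal of the neuron list was 11842 in the EiPS pool and 25424 in the B6 ES pool, and each of its 13 genes passed the floor on each array. The astrocyte list, from cells that also make Mt3, was divided. Of its 10 genes, 5 were higher, against 56.2% of all measured genes, and 5 lower, none by 2-fold, with a median of -0.02. Its summed signal was 40054 in the EiPS pool and 42951 in the B6 ES pool, and each of its 10 genes passed the floor on each array. Of the 10, only Gfap, an intermediate filament of astrocytes, had a larger difference than Mt3, with signals of 3521 in the EiPS pool and 1844 in the B6 ES pool (0.93). The part of neural cell numbers in the Mt3 difference was not tested.

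Mt1 and Mt2, the widely expressed forms, had high signals in both pools. The Mt2 signal was 8481 in the EiPS pool, against 6614 in the B6 ES pool, a 1.28-fold difference. The bright Mt1 probe set (1422557_s_at) had a signal of 11837 in the EiPS pool, against 8621 in the B6 ES pool, a 1.37-fold difference. The log2 differences of Mt2 and of this Mt1 probe set lay 0.10 apart. Among the 1936 genes above 1000 on both arrays, 87.2% had a smaller difference than Mt2 and 91.8% a smaller one than the bright Mt1 probe set. That cut lies far below the signals of both, so these genes are not all of like brightness. The spread of log2 differences between probe sets of 1 gene, the nearest gauge of measurement noise, had an SD of 0.40 over 3798 genes and of 0.19 over 585 genes with signals over 1000. Mt2 and the bright Mt1 probe set lay above 0 by more than the SD of 0.19, but Mt2 by less than that of 0.40. Less the median of all genes, the bright Mt1 probe set stood at 0.39, also under 0.40. That gauge leaves out variation between tumours, arrays and labelling, so these differences cannot be set against the spread between tumours.

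The second Mt1 probe set (1451612_at) had a signal of 132 in the EiPS pool, against 31.0 in the B6 ES pool, a 4.27-fold difference at the floor of 26.0. The 2 Mt1 probe sets thus went in the same direction, with log2 differences of 2.09 and 0.46. The size of the gap depends on the floor: the dim set differed by at least 1.43 at the floor of 49.2 and by at least 0.40 at a floor of 100, which no longer sets it apart from the bright one. The dim probe set gave 1.19 times the floor in the B6 ES pool, where 2 of the 71 silent receptors were as high, and none was on the EiPS array. Of 2345 probe sets, itself included, with a B6 ES signal from the floor to 2 times its own, 4.39% had an EiPS signal as high. The name of the bright set, which ends in _s_at, marks probes that may match more than 1 transcript, and the annotation lists Mt1 alone for it. Which transcript the dim set reads was not tested.

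The genes on either side of the cluster showed no common shift. On the Mt4 side, Bbs2, a ciliary transport gene, had signals of 173 in the EiPS pool and 103 in the B6 ES pool (0.74), Nudt21, a polyadenylation factor, differed by 0.20, and Gnao1, a neuronal G protein subunit, by -0.40. On the Mt1 side the nuclear pore gene Nup93 differed by -0.04 and Herpud1, an endoplasmic reticulum stress gene, by -0.06. Cpne2, the farthest gene taken on that side, had signals of 185 in the EiPS pool and 527 in the B6 ES pool, 2.85-fold lower in the EiPS pool. Ces1g and Slc12a3 were under the floor on both arrays. The Mt4 difference was thus larger than that of every neighbour measured, its fellow metallothioneins included. It exceeded those of Mt3, Mt2 and Mt1 by 3.26, 3.55 and 3.45 at the floor of 26.0, by at least 2.70, 2.99 and 2.90 at that of 49.2, and by at least 1.68, 1.97 and 1.87 at a floor of 100.

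The genes that move zinc and copper into and out of cells had medians close to that of all genes. Of 18 zinc transporter genes, 10 had higher and 8 lower signals in the EiPS pool, 1 in each direction by at least 2-fold, and the median was 0.06. Slc39a14, a zinc and iron importer, had signals of 401 in the EiPS pool and 175 in the B6 ES pool (1.20). Slc39a8, a related importer, had 173 in the EiPS pool and 430 in the B6 ES pool (-1.32). Slc30a1, the zinc exporter that MTF-1 also switches on, differed by -0.51, opposite in sign to Mt1 and Mt2. Slc30a3, the exporter that fills synaptic vesicles with zinc, differed by -0.67, opposite in sign to Mt3. Of 12 copper handling genes none reached 2-fold and the median was 0.16. Slc31a2, a copper transporter, differed most, by 0.88.

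Among 10 regulators of metallothionein transcription, 8 had higher and 2 lower signals in the EiPS pool, with a median of 0.13. The shares over all measured genes were 56.2% higher and 5.79% at least 2-fold higher. Mtf1 itself had signals of 117 in the EiPS pool and 144 in the B6 ES pool (-0.30), and the array measures its transcript, not the metal-bound protein. Cebpd, a factor of the acute phase response, was the single member past 2-fold, with signals of 1297 in the EiPS pool and 384 in the B6 ES pool (1.76).

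Genes of the responses that are known to raise Mt1 and Mt2 differed by unequal amounts. Of 15 measured acute phase genes 14 were higher, against 56.2% of all measured genes, and 10 at least 2-fold, against 5.79%. Because 8 of the 15 are bounds, their median, set by the fibrinogen chain gene Fgb, is itself a bound, at least 1.39. Lcn2, an iron-trapping defence protein, differed by 3.60, Hp (haptoglobin) by 2.53, Hpx (hemopexin, a haem carrier) by at least 2.53 and Saa3, a serum amyloid, by 1.75. Of the 7 above the floor on each array, the receptor genes Il6ra and Il6st had smaller differences than Mt1 and Mt2, at 0.23 and -0.19 (named after their values were seen). Glucocorticoid response genes had a median of 0.52, with 10 of 11 higher, against the same 56.2%. Only Errfi1, a feedback inhibitor of EGF receptor signalling, passed 2-fold there, with signals of 963 in the EiPS pool and 478 in the B6 ES pool. Oxidative stress genes had a median of 0.14. Against the same 56.2% and 5.79%, 13 of these 17 genes were higher and 2 at least 2-fold. These were Hmox1, the inducible haem oxygenase, at 1.68 and Gpx3, the secreted glutathione peroxidase, at 1.16.

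Hepatocyte and yolk sac genes, from tissues in which Mt1 and Mt2 are abundant, were all higher in the EiPS pool. Of 11 measured genes 9 reached 2-fold, against 5.79% of all measured genes. The median was at least 1.39, a bound set again by Fgb, which both lists hold. Alb (albumin) differed by 3.46, Serpina1b, a plasma protease inhibitor, by at least 2.32, Ahsg, the plasma protein fetuin, by at least 2.14 and Afp (alpha-fetoprotein) by 1.84. The summed signal of the list was 19926 in the EiPS pool and 11138 in the B6 ES pool, with 11 and 8 genes above the floor. Each of the 11 had a larger difference than Mt2 or the bright Mt1 probe set. The dim Mt1 probe set, at 2.09, lay within their range of 0.60 to 3.46, bounds taken at their value. The part of liver-like tissue or of inflammation in the Mt1 and Mt2 differences was not tested.

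**Figure D4:**
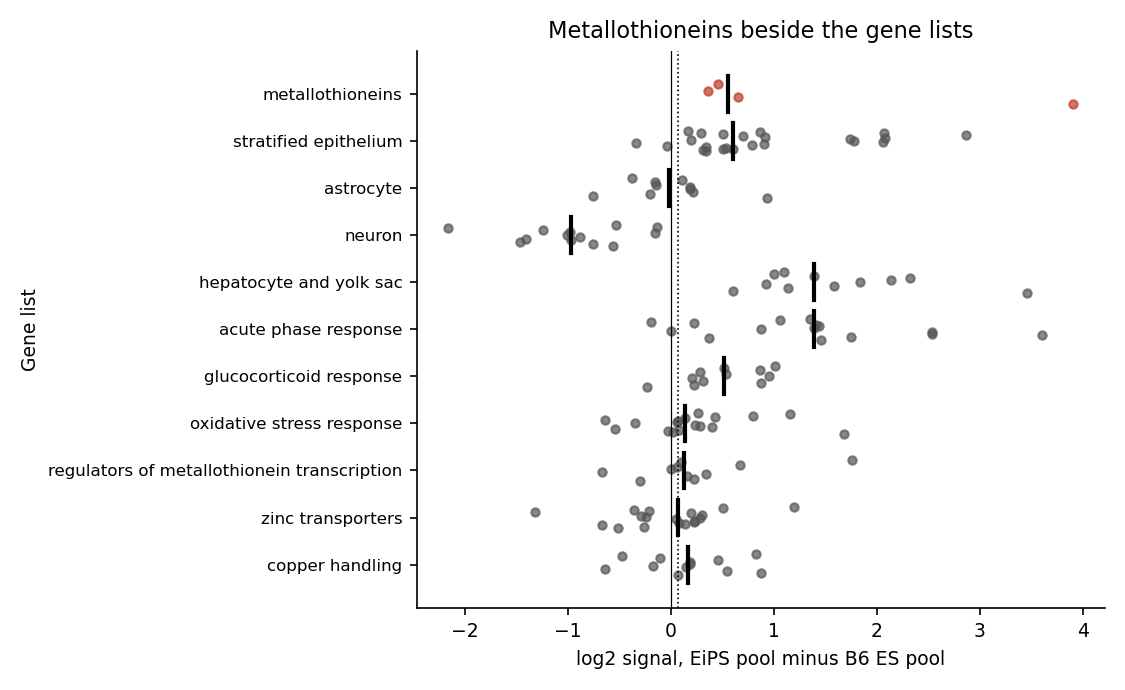
Log2 differences, EiPS pool minus B6 ES pool, of the 4 metallothioneins (brightest probe set) and of the measured genes of 10 lists, with 1 point per gene, bounds at their value, list medians as thick bars and the median of all genes as a dotted line. Mt4 lies to the right of all 23 stratified epithelium points, and Mt3 to the right of all 13 neuron genes.

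By distance between their pairs of log2 signals, over the 2 arrays and 10213 genes that passed the floor on each, the genes most like Mt4 were Pip, Trap1a and Slpi, at 0.38, 0.44 and 0.79. Pip is a secreted protein of exocrine glands, Trap1a a tumour rejection antigen and Slpi a protease inhibitor of mucosal secretions. Nearest to Mt3 were Anp32b, Krt8 and Hexa (0.05 to 0.10), nearest to Mt2 were Dcn, Rpl22 and Ran (0.08 to 0.11), and nearest to Mt1 were the ribosomal protein genes Rpl11, Rpl10a and Rps15 (0.10 to 0.13). The neighbours of Mt4 were farther off than those of the other 3 genes. With 2 arrays such likeness describes a pair of signals and nothing more.

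The order of the differences, Mt4 above Mt3 and Mt3 above Mt1 and Mt2, was kept under the other floors and scalings. The Mt4 difference was 3.74 after quantile normalization, and those of Mt3, Mt2 and Mt1 were 0.68, 0.30 and 0.27. With equal medians, which lowers the median of all genes by 0.12, they were 3.79, 0.52, 0.23 and 0.33. Mt1 and Mt2 thus changed places in the first of these and cannot be ranked. The treatment of Mt1's probe sets mattered more: their mean gave 1.28 and the dim set alone 2.09, values that rest on the dim set's B6 ES signal near the floor.

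**Figure D5:**
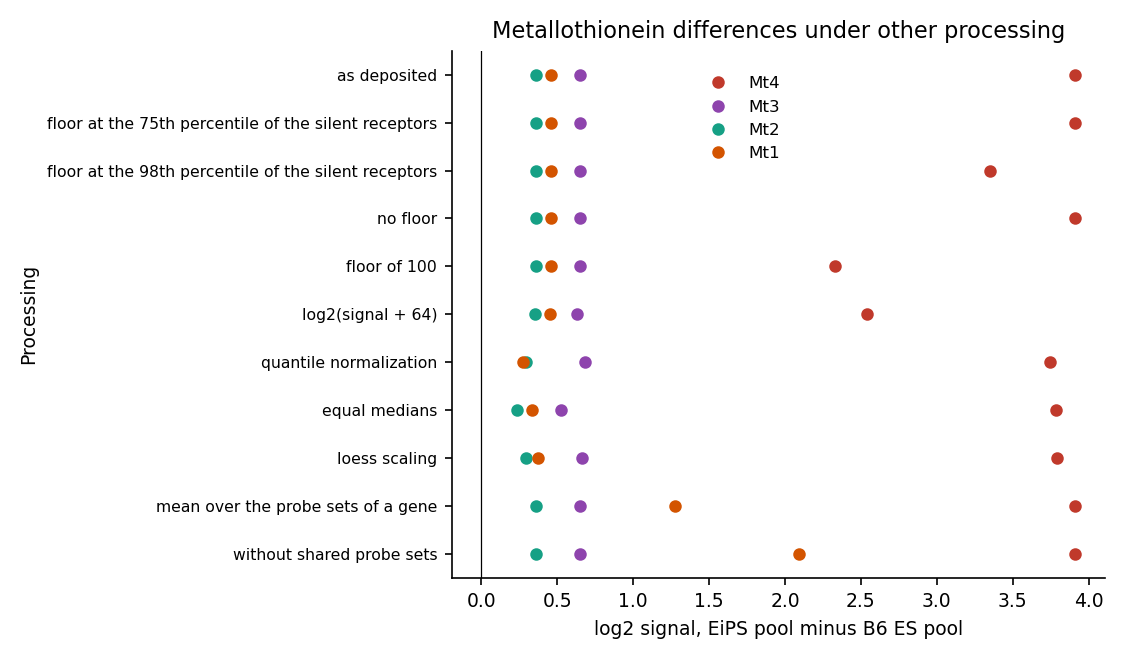
Log2 differences, EiPS pool minus B6 ES pool, of the 4 metallothionein genes as deposited and under 10 other ways of processing. Mt2 and Mt3 stay between 0.23 and 0.68 throughout, Mt4 between 2.33 (a bound, with a floor of 100) and 3.91, and Mt1 between 0.27 and 2.09, by the probe sets used.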

How the data were processed

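The authors deposited 1 linear intensity per probe set. Per the submitters' processing notes, Affymetrix Expression Console and MAS5 were used, in versions not given in the sources used here. Both arrays had a 2% trimmed mean of 500.2, so they share a scale, and no further scaling was applied. Because MAS5 subtracts the mismatch probes, low signals are noisy. Biotin-labelled cRNA came from 5 µg of total RNA, per the labels' protocols.

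Probe sets were named from the platform annotation, updated by Entrez identifier with RefSeq GRCm38.p6 symbols (20351 of 20380 with 1 symbol matched; 691 had several and 1555 none). Each of 12393 genes was represented by its brightest probe set (mean log2 signal over the arrays). Signals under the floor were set to it, giving a bound ("at least"); 1440 genes under it on both arrays were not compared. No p-value or standard error was computed, as each group has 1 array. The members, the 10 gene lists and the floor were chosen with earlier results of these data known.

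Genes named are all members, in each list up to 4 per direction past 2-fold or else the one differing most, Mtf1, Slc30a1 and Slc30a3, 4 neighbours on each side of the cluster and the 3 genes nearest in signal. Exceptions are stated. Actb, a control, differed by 0.13. Alternatives were 4 other treatments of the floor, log2(signal + 64), 3 scalings (loess span 0.4) and 2 treatments of a gene's probe sets. Python 3.11.15, pandas 2.3.3 and statsmodels 0.14.6 were used, and the steps were tested on simulated data.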

Additional observations from a re-analysis of the deposited data

How the results depend on the processing

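Quantile normalization, equal medians, loess scaling and a floor at the 75th percentile of the silent receptors left each of 16 results (the 4 metallothionein differences, 10 list medians and both 2-fold counts) within the noise SD of 0.40, or within 1.5 times for counts. The Mt4 difference was at least 3.35 at the 98th percentile floor, at least 2.33 with a floor of 100 and 2.54 with log2(signal + 64), since its B6 ES signal lies near the floor. Mt1 gave 1.28 with probe sets averaged and 2.09 without shared probe sets. For acute phase genes the median, a bound of 1.39 as reported, became 0.79 at the 98th percentile floor, 2.53 without a floor, 0.62 at a floor of 100 and 0.84 with log2(signal + 64), and the hepatocyte and yolk sac median 0.85 with a floor of 100. Genes at least 2-fold higher and lower numbered 634 and 334 as deposited, 1249 and 720 without a floor, 305 and 244 at a floor of 100, and 246 and 187 with log2(signal + 64), over different numbers of genes. No paired analysis was possible because each group has 1 array. Signals near the floor limit the fold of Mt4 and of the dim Mt1 probe set.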
